A study of Mus musculus with 6 samples.

Results

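The genes described here lie beside Pck1, the gene targeted in these mice, on mouse chromosome 2. They are Bmp7, Rae1, Rbm38 and Ctcfl on one side and Zbp1, Pmepa1, Rab22a, Vapb, Stx16 and Npepl1 on the other, 10 of the 23785 genes that the array's probes name through RefSeq. They were chosen by position, as neighbours of the targeted allele, but with earlier results of these data known. They are not every tested gene of that stretch: Spo11, Ctcflos and Ppp4r1l-ps lie within it and are not among them. The gene order below is that of the RefSeq gene table for the mouse assembly GRCm38.p6. All 10 had at least 1 probe, with 14 probes in all, and all 10 passed the filter on dim probes.

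Whole kidney RNA from 6 samples was hybridised to 1-colour Agilent arrays, with 3 arrays labelled WT and 3 labelled Pck1-CKO. The Pck1-CKO mice were Pck1 flox/flox/γGT-Cre tg/+ on a C57BL/6J background, and γGT-Cre directs the deletion to the renal proximal tubule, so other kidney cells keep the gene. The controls were littermates of the same age and sex with the genotype label wild-type. Per the labels, that breeding gave controls that were Pck1 flox/flox, Pck1 flox/+ or Pck1 flox/+/γGT-Cre tg/+, and the sources used here do not say which of these each WT array holds. A floxed chromosome 2 may therefore have been present in both groups. All mice were killed at 32 weeks. The labels do not say that the arrays came from separate mice, so the p-values reflect only the spread among these samples, which may be technical.

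Neighbouring genes on a chromosome share a stretch of chromatin, and enhancers can act on more than 1 of them. A targeted allele can also carry linked sequence from the cells in which it was made, or a change at the locus itself can alter the genes beside it. The comparison of both genotypes near Pck1 therefore asks which neighbours differed in level. Pck1 itself encodes the cytosolic phosphoenolpyruvate carboxykinase, a gluconeogenic enzyme that is abundant in the proximal tubule.

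The 6 arrays shared slide 1, the WT arrays in its row 1 and the Pck1-CKO arrays in its row 2, so genotype and position on the slide cannot be told apart. Between 37118 and 38708 of 56605 probes lay well above background on an array. Kidney markers were bright, and 10 of 10 proximal tubule markers were well above background on every array. With 3 arrays per group, the precision of all values is limited by that number. Of 17136 genes tested with limma, 1377 passed at an adjusted p under 0.05, which is 8.04%, with 743 (4.34%) higher and 634 (3.70%) lower in Pck1-CKO. Scaled to the array median in place of the 75th percentile, 2434 were higher and 560 lower. That scaling moved the log2 change of every gene up alike, to a median over all genes of 0.085 in place of 0.0091. Without WT 1, WT 2, Pck1-CKO 1 or Pck1-CKO 2, between 16 and 39 genes were higher and between 9 and 31 lower.

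Of the 10 neighbours, 3 rose and 1 fell, where 4.34% of all genes tested rose and 3.70% fell. Rbm38, Stx16 and Rab22a were higher in Pck1-CKO, by 1.63-fold, 1.18-fold and 1.14-fold, and Zbp1 was lower, at 0.717 of the WT level. The other 6 did not pass the test. Their log2 changes were 1.47 for Ctcfl, 0.37 for Pmepa1, 0.14 for Npepl1, 0.07 for Vapb, 0.04 for Rae1 and -0.15 for Bmp7. In 7 of the 10 the groups did not overlap, against 38.3% of all genes tested. The median log2 change of the 10 was 0.16, against 0.0091 over all genes. Of the 10 changes 8 were positive and 2 negative, against 8947 positive and 8189 negative over all genes. These calls also depended on the genes tested: with no filter on dim probes 0 of the 10 passed in limma, with 6 at an unadjusted p under 0.05, against 21.3% of all genes in that fit. In whole kidney, fewer cells of a type and less RNA per cell cannot be told apart. Adipocyte markers moved with genotype, with 5 of 10 higher and 0 lower. Their summed linear signal, in units of each array's 75th percentile, was 16.3 to 29.8 in WT and 86.4 to 120.0 in Pck1-CKO, and their part in the results below was not tested. In 7 of 10 marker lists the summed signals of the groups did not overlap. Besides adipocytes and lymphocytes these were the distal convoluted tubule (78.6 to 86.8 in WT and 61.4 to 69.2 in Pck1-CKO), podocytes (28.0 to 30.5 and 23.7 to 25.5), endothelium (28.1 to 28.3 and 24.6 to 27.4), the collecting duct (46.0 to 50.8 and 56.6 to 56.8) and the thick ascending limb (395 to 419 and 438 to 463), and their part was not tested either. Of 6 collecting duct markers 2 were higher and 2 lower in limma, so that sum does not stand for each of its markers.

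**Figure D1:**
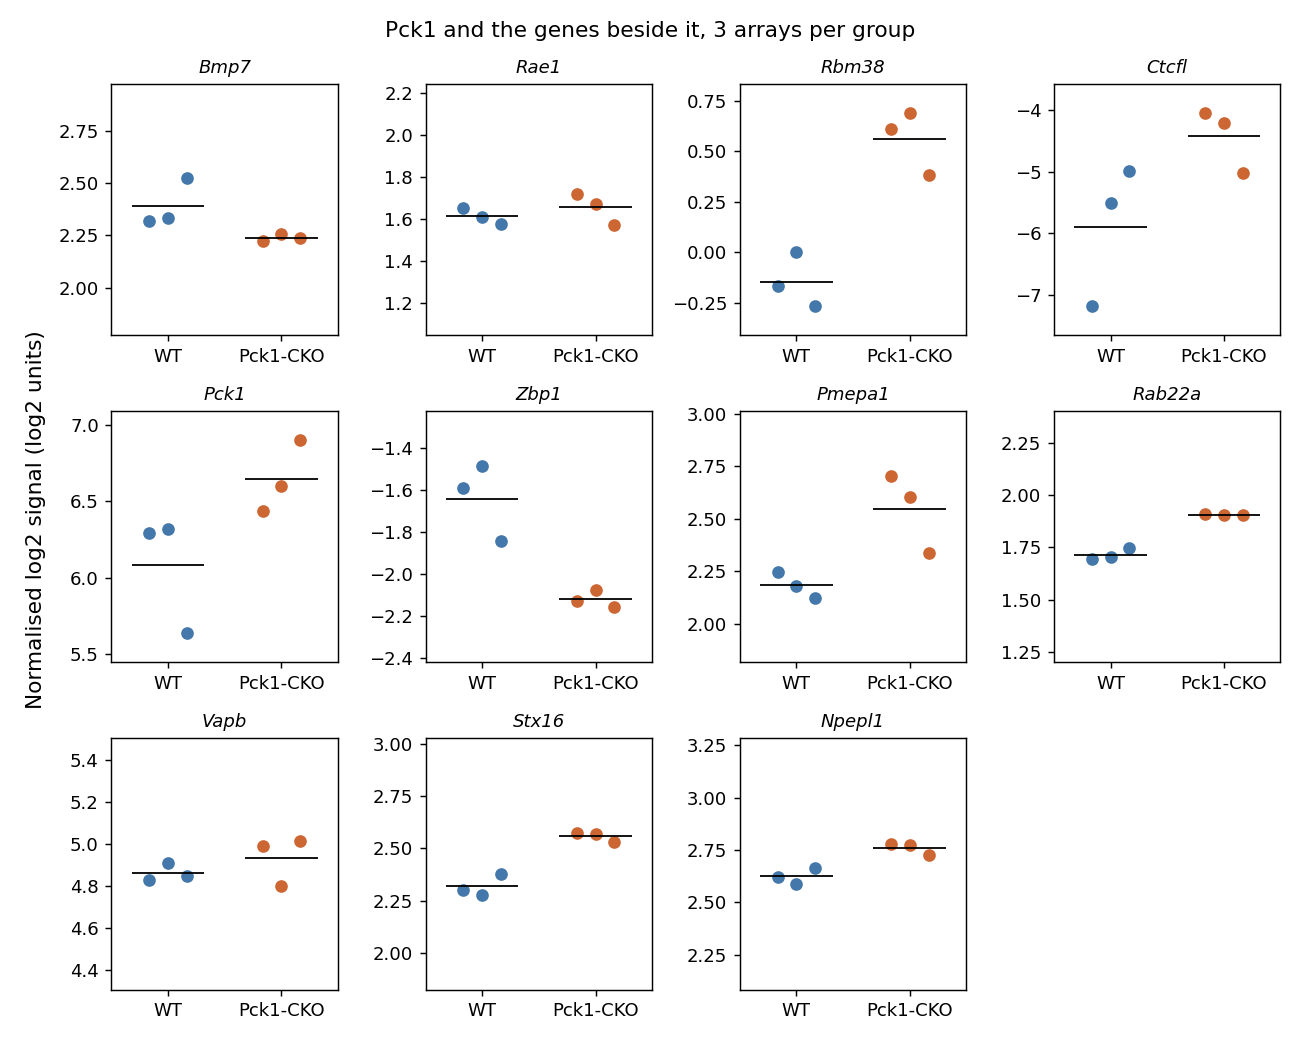
Normalised log2 signal of Pck1 and the 10 genes beside it (vertical axis, log2 units, a scale of its own in each panel), with 1 point per array and a line at the mean of the 3 arrays of each group. The groups lie apart for Rbm38, Zbp1, Pmepa1, Rab22a, Stx16, Npepl1, Bmp7 and Pck1, and overlap for Rae1, Ctcfl and Vapb.

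On the side of lower coordinates, Rbm38 differed most clearly. It encodes an RNA-binding protein that p53 induces and that acts on the stability of messenger RNAs, among them that of the cell cycle inhibitor p21. Its normalised log2 signal was -0.17, -0.0015 and -0.27 in WT 1, 2 and 3 and 0.61, 0.69 and 0.38 in Pck1-CKO 1, 2 and 3. All Pck1-CKO arrays lay above all WT arrays, with Pck1-CKO 3 nearest to them. On the linear scale the processed signal was 504.2 ± 48.1 (SD, n = 3) in WT and 848.8 ± 87.8 (SD, n = 3) in Pck1-CKO. The log2 change was 0.71 ± 0.11 (SE; 95% interval 0.44 to 0.97), with limma adjusted p = 0.0294. The change kept its size with any array left out, at 0.64 to 0.80. The call was lost without WT 1 (limma adjusted p = 0.0977), WT 2 (0.0793), Pck1-CKO 1 (0.0947) or Pck1-CKO 2 (0.116). The 1 Rbm38 probe also passed when each probe was tested for itself (limma adjusted p = 0.0391), as did 4.29% of 38366 probes. In that test the brighter Zbp1 probe (0.056), the brighter Stx16 probe (0.0562) and the Rab22a probe (0.067) did not pass.

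Ctcfl lies between Rbm38 and Pck1 and encodes a paralog of the insulator protein CTCF that is normally made in the testis. Its probe was dim. The processed signal was 3.6, 12.4 and 18.4 on the WT arrays and 34.0, 31.4 and 18.0 on the Pck1-CKO arrays. Pck1-CKO 3 lay at the level of WT 3, so the groups overlapped. On WT 1 the probe was not well above background, where the lowest signal so classed was 12.2, and 2 of 3 WT arrays measured it. The fitted log2 change was 1.47 ± 0.61 (SE; limma adjusted p = 0.168), and 0.82 without WT 1. After normexp background correction, whose offset shrinks dim signals, it was 0.22.

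Rae1 and Bmp7, farther out on the same side, did not pass. Rae1 encodes a partner of the nuclear pore protein Nup98 in messenger RNA export, and its main probe read 1.65, 1.61 and 1.58 on the WT arrays and 1.72, 1.67 and 1.57 on the Pck1-CKO arrays on the normalised log2 scale. These groups overlapped, and the log2 change of 0.04 had a 95% interval of -0.09 to 0.17. Bmp7 is the secreted bone morphogenetic protein that nephron formation requires, and the adult kidney keeps making it. Its normalised log2 signal was 2.32, 2.33 and 2.53 on the WT arrays and 2.22, 2.26 and 2.24 on the Pck1-CKO arrays. The groups did not overlap, and WT 3 lay above the other 2 WT arrays. For Bmp7 the log2 change was -0.15 ± 0.07 (SE; limma adjusted p = 0.18), and -0.086 without WT 3.

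On the side of higher coordinates, Zbp1 is the gene next to Pck1. It encodes a sensor of Z-form nucleic acids that interferon induces and that can start necroptosis through Ripk3. The brighter of its probes, A_55_P1994042, had a normalised log2 signal of -1.59, -1.49 and -1.84 on the WT arrays and -2.13, -2.08 and -2.16 on the Pck1-CKO arrays. All Pck1-CKO arrays lay below all WT arrays, and WT 3 was the lowest of WT. The log2 change was -0.48 ± 0.10 (SE; 95% interval -0.72 to -0.24), with limma adjusted p = 0.0435. The probe named for another Zbp1 transcript, A_66_P139683, read -3.16, -2.90 and -3.38 on the WT arrays and -3.69, -3.26 and -3.32 on the Pck1-CKO arrays. There the groups overlapped, and the log2 change of -0.28 had a 95% interval of -0.69 to 0.13. With the mean of both probes for the gene the log2 change was -0.38 and did not pass (limma adjusted p = 0.109), nor did Zbp1 pass after quantile normalization (log2 change -0.44, limma adjusted p = 0.0508). Zbp1 passed without WT 3, at -0.58, and with no other array left out: limma adjusted p was 0.13 (WT 1 left out), 0.114 (WT 2), 0.122 (Pck1-CKO 1), 0.138 (Pck1-CKO 2) and 0.078 (Pck1-CKO 3). Lymphocyte markers moved with it, with 0 of 9 tested higher and 2 lower. Their summed signal, on the scale given for the adipocyte markers, was 3.28 to 3.88 in WT and 2.49 to 2.65 in Pck1-CKO, and their part in the Zbp1 value was not tested. Macrophage markers had summed signals of 29.2 to 29.4 in WT and 29.1 to 30.6 in Pck1-CKO.

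Pmepa1, the next gene, encodes a membrane protein that TGF-β induces and that holds back SMAD signalling. Its normalised log2 signal was 2.25, 2.18 and 2.13 on the WT arrays and 2.71, 2.60 and 2.34 on the Pck1-CKO arrays. The groups did not overlap, and the 3 WT arrays lay closer together (SD 0.061) than the Pck1-CKO arrays (SD 0.19). For Pmepa1 the log2 change was 0.37 ± 0.10 (SE; 95% interval 0.11 to 0.62), and it did not pass (limma adjusted p = 0.0786). Pck1-CKO 3 was the array nearest to WT, as for Rbm38. Without it the log2 change was 0.47 and passed (limma adjusted p = 0.0254). Pmepa1 also passed after normexp (0.0443) and after scaling to the array median (0.0365).

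The remaining 4 genes of this side act in membrane traffic or protein turnover. Rab22a, a small GTPase gene of early endosomes, had a normalised log2 signal of 1.69, 1.70 and 1.75 on the WT arrays and 1.91, 1.90 and 1.90 on the Pck1-CKO arrays. Its change was small beside that of Rbm38, but the Pck1-CKO arrays lay within 0.01 of each other and above every WT array. The log2 change of Rab22a was 0.19 ± 0.04 (SE; 95% interval 0.10 to 0.28), with limma adjusted p = 0.0411. Stx16 encodes a SNARE protein of the trans-Golgi network. Its brighter probe read 2.30, 2.28 and 2.38 on the WT arrays and 2.57, 2.57 and 2.53 on the Pck1-CKO arrays. These groups lay apart too, and the log2 change of Stx16 was 0.24 ± 0.04 (SE; 95% interval 0.13 to 0.35), with limma adjusted p = 0.0375. The dimmer Stx16 probe gave a log2 change of 0.23 and also separated the groups, at -0.72, -0.55 and -0.65 on the WT arrays against -0.46, -0.39 and -0.38 on the Pck1-CKO arrays. Both genes kept their size with any array left out, at 0.18 to 0.21 for Rab22a and 0.22 to 0.27 for Stx16. Without WT 1, WT 2, Pck1-CKO 1 or Pck1-CKO 2 neither passed, with limma adjusted p of 0.122 to 0.154 for Rab22a and 0.112 to 0.144 for Stx16. Rab22a did not pass without Pck1-CKO 3 either (0.0619), or after quantile normalization (log2 change 0.16, limma adjusted p = 0.0526).

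Npepl1, next to Stx16, encodes a predicted aminopeptidase of the leucyl aminopeptidase family. It read 2.62, 2.59 and 2.66 on the WT arrays and 2.78, 2.78 and 2.73 on the Pck1-CKO arrays on the normalised log2 scale. The groups did not overlap, but the log2 change of 0.14 ± 0.04 (SE) did not pass (limma adjusted p = 0.0919). Scaled to the array median it was 0.21 and passed (limma adjusted p = 0.0375). Vapb encodes a tail-anchored protein of the endoplasmic reticulum that forms contacts with other organelles. Its brighter probe read 4.83, 4.91 and 4.85 on the WT arrays and 4.99, 4.80 and 5.01 on the Pck1-CKO arrays, with Pck1-CKO 2 below every WT array. The log2 change of Vapb was 0.07 (95% interval -0.10 to 0.25), and that of its dimmer probe was -0.044 (95% interval -0.18 to 0.09). With array weights the brighter probe gave -0.016, so no direction is given for Vapb.

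**Figure D2:**
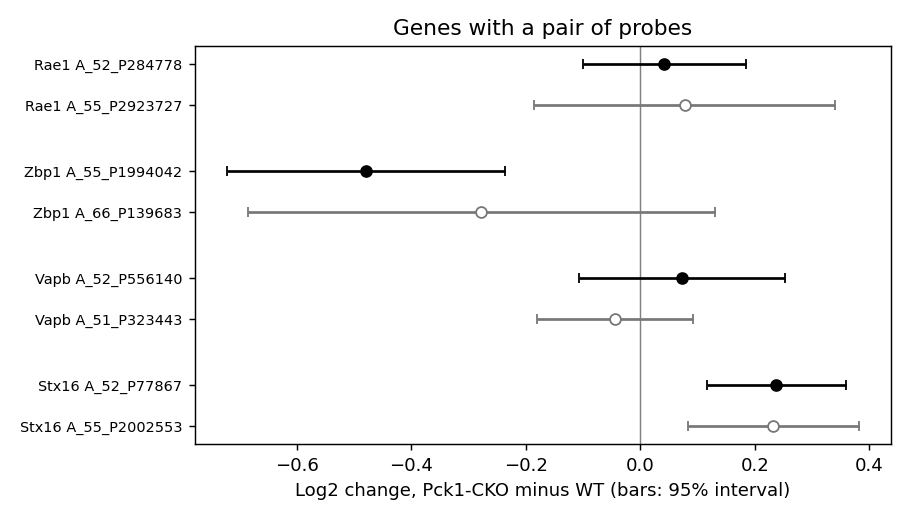
Log2 change (horizontal axis, Pck1-CKO minus WT, with 95% intervals) for each probe of the 4 genes that have a pair of probes, where filled points mark the brighter probe that stood for the gene. Both Stx16 probes lie near 0.24 and 0.23, whereas for Zbp1 the interval of the dimmer probe includes 0 and for Vapb the signs differ.

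The sequences before the start sites are shown for a pair of neighbours that rose (Rbm38 and Rab22a), for Vapb, the next tested gene after Rab22a, which did not pass, and for Pck1. RefSeq promoter entries of build GRCm38.p6 matched 6 of the 10 neighbours by symbol, and Bmp7, Ctcfl, Zbp1 and Pmepa1 had none. Each line gives 250 bases up to the start site, 5′ to 3′. Capitals mark matches on either strand to GGGCGG (the GC box), CCAAT (the CCAAT box), TATAAA (the TATA box), CACGTG (an E-box), TGACGTCA (the full cAMP response element) or the p53 half-site consensus.
Rbm38, chr2:173021652-173021901, plus strand: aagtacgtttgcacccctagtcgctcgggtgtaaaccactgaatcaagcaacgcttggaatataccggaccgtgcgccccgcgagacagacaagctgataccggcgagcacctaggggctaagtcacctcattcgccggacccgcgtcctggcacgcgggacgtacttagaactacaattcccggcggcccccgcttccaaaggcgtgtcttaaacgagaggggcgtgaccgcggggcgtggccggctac
Rab22a, chr2:173659595-173659844, plus strand: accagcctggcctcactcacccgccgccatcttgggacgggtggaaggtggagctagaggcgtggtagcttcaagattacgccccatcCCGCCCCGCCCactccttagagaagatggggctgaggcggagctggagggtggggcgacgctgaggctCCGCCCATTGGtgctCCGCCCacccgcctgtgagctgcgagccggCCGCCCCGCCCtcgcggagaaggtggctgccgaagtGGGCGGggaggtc
Vapb, chr2:173737321-173737570, plus strand: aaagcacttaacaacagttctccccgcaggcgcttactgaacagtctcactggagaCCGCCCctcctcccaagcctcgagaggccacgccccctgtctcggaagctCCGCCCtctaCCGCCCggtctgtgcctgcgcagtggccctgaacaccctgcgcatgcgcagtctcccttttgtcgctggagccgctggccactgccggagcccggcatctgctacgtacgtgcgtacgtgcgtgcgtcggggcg
Pck1, chr2:173152823-173153072, plus strand: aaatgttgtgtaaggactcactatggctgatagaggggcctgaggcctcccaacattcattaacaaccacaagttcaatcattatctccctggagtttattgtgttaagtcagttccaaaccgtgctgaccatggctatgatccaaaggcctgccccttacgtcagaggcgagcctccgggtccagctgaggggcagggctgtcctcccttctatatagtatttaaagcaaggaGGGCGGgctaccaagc
The Rab22a window held 7 GC boxes and 1 CCAAT box, where 2 pairs of neighbouring GC boxes shared a base and no other matches overlapped. The Vapb window held 3 GC boxes, the Pck1 window 1 GC box, and the Rbm38 window none of the 6 motifs. Only exact matches were counted. In the Pck1 window ttacgtca and tttaaa, each 1 base away from a motif searched, therefore stayed in small letters, so the count does not show that such elements are absent. Not shown are Stx16, which also rose and whose 2 windows held 0 and 1 GC boxes, Rae1 with 1 and Npepl1 with 2. Among all 32851 promoter windows of this length, 32.7% held a GC box, 33.8% a CCAAT box, 12.4% a TATA box, 7.13% a p53 half-site, 6.02% the E-box and 1.55% the full cAMP response element. The share of G and C was 61.6% for Rbm38, 70.0% for Rab22a, 66.0% for Vapb and 50.8% for Pck1, against a median of 52.4%. Motif matches describe these letters and were not related to the measured changes by a test.

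Pck1 was bright on every array, at 6.29, 6.32 and 5.63 on the WT arrays and 6.44, 6.60 and 6.90 on the Pck1-CKO arrays on the normalised log2 scale. Its log2 change of 0.56 ± 0.22 (SE; limma adjusted p = 0.152) did not pass and is not a decrease. Without WT 3, the lowest array, the Pck1 change was 0.34, and with array weights 0.35, and neither passed. Whether its 1 probe lies in the deleted exons is not stated in the sources used here. That probe therefore does not check the labels, and all directions here are those of the libraries labelled Pck1-CKO. Within Pck1-CKO the arrays did not order alike for Pck1 and for Rbm38 or Pmepa1. Pck1-CKO 3 had the highest Pck1 signal of its group but the lowest Rbm38 and Pmepa1 signals. Within WT, by contrast, WT 3 was lowest for Pck1, Rbm38 and Pmepa1 alike.

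The chromosome around Pck1 was then read gene by gene. Of the 30 annotated genes on each side, 33 of 60 had a probe and 21 were tested, Pck1 not counted. Among these 21, 4 rose and 1 fell, against 8.04% of all genes tested that passed in either direction. The 1 gene of these 5 that is not among the 10 neighbours is Ctcflos, a long noncoding RNA gene between Ctcfl and Pck1. It read -5.68, -5.06 and -4.75 on the WT arrays and -3.70, -3.76 and -3.62 on the Pck1-CKO arrays on the normalised log2 scale. All Pck1-CKO arrays lay above WT, and 2 of 3 WT arrays had the probe well above background. The log2 change of Ctcflos was 1.47 ± 0.23 (SE; limma adjusted p = 0.0307), and 0.37 after normexp, where it also passed. It passed without WT 1 (log2 change 1.21) and without WT 3 (1.68), but not without WT 2, Pck1-CKO 1, Pck1-CKO 2 or Pck1-CKO 3, with limma adjusted p of 0.0509 to 0.118.

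**Figure D3:**
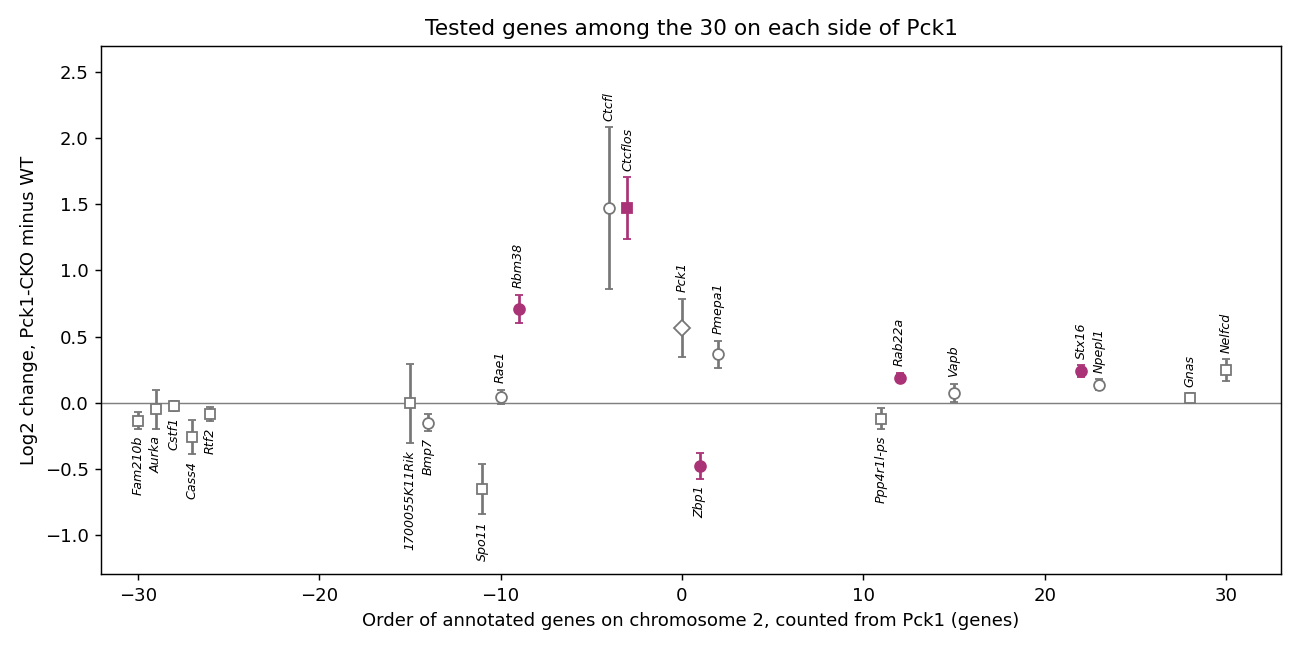
Log2 change ± SE (vertical axis, Pck1-CKO minus WT) of every tested gene among the 30 annotated genes on each side of Pck1, against gene order on chromosome 2 (horizontal axis, genes from Pck1). Circles are the 10 neighbours, squares other genes and the diamond Pck1, and filled symbols passed limma at an adjusted p under 0.05, as did Rbm38, Ctcflos, Zbp1, Rab22a and Stx16.

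Of the other tested genes near Pck1, the meiotic recombination gene Spo11, between Bmp7 and Rae1, had a log2 change of -0.66 ± 0.19 (SE; limma adjusted p = 0.0869). The pseudogene Ppp4r1l-ps, beside Rab22a, had -0.12 (limma adjusted p = 0.347). Both signs thus occurred on each side of Pck1. Of the 11 tested genes in this stretch that are neither Pck1 nor among the 10 neighbours, 3 had a positive and 8 a negative log2 change, with a median of -0.052. In limma 9.09% of these 11 passed, against 8.04% of all genes tested. The groups did not overlap in 45.5% of them, against 38.3% of all genes. Over all of chromosome 2, 45 genes rose and 51 fell of 1336 tested, which is 7.19%. Counted by the tested genes nearest to Pck1, 4 rose and 1 fell among 10 on each side (25% called), 5 rose and 5 fell among 25 on each side (20%), and 7 rose and 8 fell among 50 on each side (15%). Among the 100 before and all 85 after Pck1, 10 rose and 10 fell (10.8%, against 8.04% of all genes tested). These counts by distance were chosen after the values were seen and had no test of their own.

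**Figure D4:**
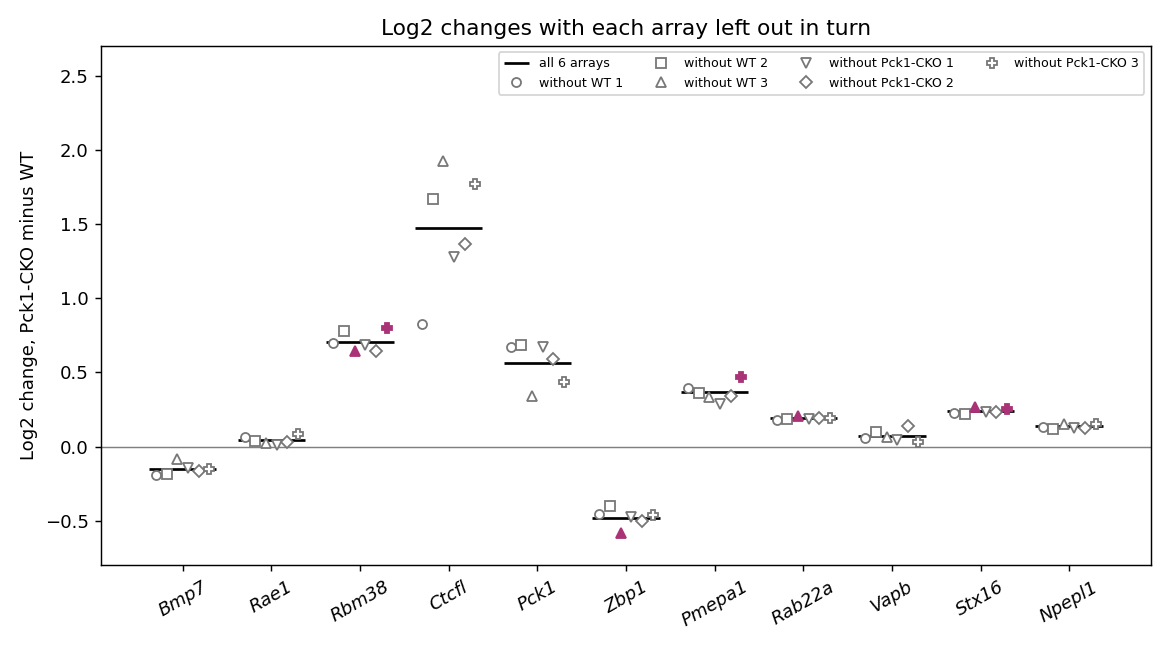
Log2 change (vertical axis, Pck1-CKO minus WT) of Pck1 and its 10 neighbours with each of the 6 arrays left out in turn, where the bar is the value from all arrays and filled symbols passed limma at an adjusted p under 0.05. Ctcfl ranges from 0.82 to 1.93, Rbm38 from 0.64 to 0.80, and filled symbols occur without WT 3 or Pck1-CKO 3.

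Genes of the pathways in which these neighbours act were read from the same fit. The counts below stand beside 4.34% of all genes tested that rose and 3.70% that fell, and counts at an unadjusted p under 0.05 beside 17.5% of all genes higher and 13.7% lower. Around Bmp7, 1 of 29 tested genes of BMP signalling rose and 1 fell, with a median log2 change of -0.036. The receptor gene Bmpr1b fell, with a log2 change of -0.61 ± 0.09 (SE; limma adjusted p = 0.0275). Around Pmepa1, 1 of 20 TGF-β genes rose, Smurf2, a ubiquitin ligase gene, at 0.25 (limma adjusted p = 0.0418), and the median was 0.031. With the mean over its probes Smurf2 was at 0.11 and did not pass (limma adjusted p = 0.285). Around Rbm38, 2 of 18 p53 target genes rose and 1 fell, Phlda3 at 0.43, Ccng1 at 0.23 and Plk2 at -0.27. The median of that list was 0.068. In limma, an unadjusted p under 0.05 was found for 8 higher and 4 lower p53 target genes. For BMP signalling these counts were 6 higher and 9 lower, and for the TGF-β genes 3 higher and 4 lower. Plk2 lay at the threshold (limma adjusted p = 0.0499) and did not pass after quantile normalization, after scaling to the array median, with the mean over probes, with outlier spots kept or with any array left out.

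Around Zbp1, 2 of 31 tested interferon-stimulated genes fell and none rose, in limma, where an unadjusted p under 0.05 was found for 0 higher and 16 lower genes. Ifit1, an RNA-binding antiviral gene, had a log2 change of -0.42 (limma adjusted p = 0.0357) and Trim30a, a ubiquitin ligase gene, -0.37 (limma adjusted p = 0.0444). In that list 29 of 31 genes had a negative change, with a median of -0.26 against 0.0091 over all genes. The lymphocyte markers were lower alongside, at the summed signals given beside Zbp1, and their part in the values of this list was not tested. Of 10 genes whose proteins act with Zbp1 in cell death or interferon signalling, 1 rose, the caspase gene Casp8, at 0.31 (limma adjusted p = 0.0392). Among these 10, 2 higher and 0 lower genes had an unadjusted p under 0.05 in limma. Around Rae1, 0 of 17 genes of the nuclear pore, export and the spindle checkpoint passed in limma, where 3 higher and 0 lower genes had an unadjusted p under 0.05. The spindle checkpoint gene Bub3 ranked first, at a log2 change of 0.14 (limma adjusted p = 0.0764). Around Rab22a, Vapb and Stx16, 0 of 20 trafficking partners passed in limma, where 8 higher and 0 lower genes had an unadjusted p under 0.05. Rmdn3, whose protein binds Vapb, ranked first by p, at a log2 change of 0.18 (limma adjusted p = 0.056). Of the 9 list genes that passed, 0 passed without WT 1, WT 2, Pck1-CKO 1 or Pck1-CKO 2 in limma, where all 9 had an unadjusted p under 0.05, as did 20.6% to 24.6% of all genes. None of the 9 passed in limma with no filter on dim probes or with the replicate block, again with all 9 at an unadjusted p under 0.05, beside 21.3% and 30.2% of all genes. These 9 were picked because they passed with the same arrays, so their unadjusted p in such refits is no separate support. After quantile normalization 5 of the 9 passed, where over all genes 655 were higher and 547 lower.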

How the data were processed

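Cy3-labelled RNA of whole kidneys was measured on Agilent arrays of 1 colour, per the labels' protocols. The deposited scanner files hold linear intensity values from Agilent Feature Extraction 10.7.1.1, with the background subtracted and the surface trend removed, per the submitters' processing notes and the file headers. The authors' deposited value table is a linear ratio: checked against the scanner files, each value is the processed signal over a factor of that array, within 0.1% for at least 99.5% of probes above 1. The median of a column is 0.104, 0.103 and 0.102 on the WT arrays and 0.099, 0.097 and 0.098 on the Pck1-CKO arrays.

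Outlier spots were left out, spots of 1 probe were averaged on the log2 scale, and the 75th percentile of the array was subtracted. Unversioned RefSeq accessions (GRCm38.p6) named the probes and gave 34675 of 56605 probes 1 symbol. The array design names build mm9, so coordinates are given only for RefSeq promoters. The filter kept probes that were well above background on 3 or more of 6 arrays, and the brightest stood for a gene. The test was limma's (lmFit and eBayes, version 3.58.1, R 4.3.3), 2-sided, with Benjamini-Hochberg adjustment over all 17136 genes. The procedure was tested on simulated data with independent noise on each array. Those data held no effect of slide position or cell mix, so they do not bear on either.

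The 10 genes and the lists were chosen with earlier results of these data known. Named genes were Pck1, its 10 neighbours, genes past the threshold among the 30 on each side, the 5 tested genes nearest to Pck1 on each side, up to 4 genes per list that passed or otherwise that of lowest p, and the 3 genes most correlated with each neighbour that passed. Alternatives covered normalization, background, source of values, filter, probe choice, flags, variance model, array weights, left-out arrays and a replicate block. Normexp (offset 50) used median signals. The values of 1 list gene that passed are not reported here.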

Additional observations from a re-analysis of the deposited data

How the results depend on the processing

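With 1 array left out, the count of the 10 neighbours past the threshold, 4 with all arrays, ranged from 0 to 4, and that of the 60 flanking genes, 5 with all arrays, from 0 to 5. Without WT 1, WT 2, Pck1-CKO 1 or Pck1-CKO 2 the count of neighbours was 0 in limma, where 5 or 6 had an unadjusted p under 0.05, as did 20.6% to 24.6% of all genes. Over all genes, 16 to 779 were higher and 9 to 806 lower. The log2 changes ranged from 0.64 to 0.80 for Rbm38, 0.22 to 0.27 for Stx16, 0.18 to 0.21 for Rab22a, -0.58 to -0.40 for Zbp1 and 0.29 to 0.47 for Pmepa1, and more widely from 0.82 to 1.93 for Ctcfl, -0.19 to -0.086 for Bmp7 and 0.34 to 0.68 for Pck1, all without a change of sign. With the sample number as a replicate block 3 genes were higher and 1 lower, and 0 neighbours and 0 flanking genes passed in limma, with 6 and 9 at an unadjusted p under 0.05 (30.2% of all genes). The block leaves the log2 changes as they were (Rbm38 0.71, Stx16 0.24, Rab22a 0.19, Zbp1 -0.48). The labels do not say that shared sample numbers pair animals, so the numbers were not taken as pairs. Over all genes, deviations of same-numbered samples correlated at -0.00097, -0.115 and -0.0227. The sample number is also the array's column on the slide, so the block follows that position too. For single genes the block changed the SE, from 0.11 to 0.046 for Rbm38 and from 0.043 to 0.048 for Stx16. With no filter on dim probes 61 genes were higher and 81 lower, and again 0 neighbours and 0 flanking genes passed in limma, with 6 and 11 at an unadjusted p under 0.05 (21.3% of all genes). The log2 changes (Rbm38 0.71, Stx16 0.24, Rab22a 0.19, Zbp1 -0.48) were as before. With array weights 3285 of 17136 genes were higher and 2614 lower, and 7 neighbours and 9 flanking genes passed. Among these were Ctcfl at 1.71, Pmepa1 at 0.40 and Npepl1 at 0.17, and Vapb turned to -0.016. With an intensity trend 1689 were higher and 1133 lower, and 8 flanking genes passed, with Pmepa1 at 0.37 and Npepl1 at 0.14. Scaling to the median gave 2434 higher and 560 lower genes, and 8 flanking genes passed, with Pmepa1 at 0.44 and Npepl1 at 0.21. Median scaling moved every gene up alike, so that the median log2 change over all genes was 0.085, against 0.0091 with the 75th percentile. Quantile normalization gave 655 higher and 547 lower genes. It left 2 neighbours (Rbm38 and Stx16) and 3 flanking genes, with Rab22a at 0.16 and Zbp1 at -0.44. Normexp gave Pmepa1 0.35, which passed, and the mean over probes gave Zbp1 -0.38, which did not. Besides that shift under median scaling, the cause of these differences was not tested. Ctcfl could not be tested among probes well above background on all 6 arrays. Signal over background limits Ctcfl and Ctcflos, which were dim.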

Other observations

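Genes whose normalised signal followed that of a neighbour most closely were read over the 6 arrays, as a description with no test, since both groups enter each correlation and separate it. For Zbp1 the highest Pearson correlations among all tested genes were those of Trim30a (r = 0.9993), the zinc finger gene Zfp606 (r = 0.9975) and Ifit1 (r = 0.9934). Trim30a and Ifit1 are both interferon-stimulated. For Rbm38 they were Ctps (r = 0.9978), which encodes an enzyme of CTP synthesis, the phosphatase gene Ppp4c (r = 0.9971) and the histone demethylase gene Kdm1b (r = 0.9964). For Rab22a they were Nos3 (r = 0.9994), the endothelial nitric oxide synthase gene, Kctd2 (r = 0.9994) and Hsd17b12 (r = 0.9987). For Stx16 they were Polr3e (r = 0.9978), Tmppe (r = 0.9978) and Afmid (r = 0.9972), of which Afmid encodes an enzyme of tryptophan breakdown. None of these 12 is Pck1 or another of its 10 neighbours.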
